A study of Mus musculus with 3 samples.

Results

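The genes described here are 9 enzymes of folate and serine metabolism (Aldh1l1, Aldh1l2, Mthfd1, Mthfd1l, Mthfd2, Shmt1, Shmt2, Phgdh and Psat1), out of 31040 genes measured in single nuclei of the mouse lumbar spinal cord. Aldh1l2 was chosen by its higher level in oligodendrocytes of SOD1G93A mice than of wild-type (WT) mice, and the other 8 genes were added as its neighbours in the same pathways. The values of Aldh1l2 by genotype in oligodendrocytes are therefore a description and carry no test. The other genes, and sex, were tested in each cell type where the gene passed a filter on low counts. Differences between cell types and shares of nuclei are also descriptions.

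The SOD1G93A mice (B6.Cg-Tg(SOD1*G93A)1Gur/J, on the C57BL/6J background) carry many copies of a human SOD1 transgene with a mutation of familial amyotrophic lateral sclerosis, which is driven by the human SOD1 promoter and so is not limited to motor neurons or to any 1 cell type. The controls were littermates without the transgene. All 12 mice were 90 days old, with 3 females and 3 males of each genotype. Nuclei from frozen lumbar cord were tagged by mouse and loaded in 3 pools (A, B and C), each holding 1 mouse of every sex and genotype.

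The table holds 14662 nuclei and 206486779 unique molecular identifiers (UMIs, 1 per captured RNA molecule), with 548 to 2259 nuclei and 6411715 to 36668441 UMIs per mouse. The pools shared 15 nucleus barcodes by sequence. Oligodendrocytes contributed 965 nuclei from SOD1G93A mice (44 to 387 per mouse) and 1200 from WT mice (117 to 292 per mouse). Levels are given as UMIs of the gene per 1000000 UMIs of the same cell type in the same mouse (CPM), and they are compared between cell types or mice for 1 gene at a time. In such sums, fewer expressing nuclei and less RNA per nucleus cannot be told apart.

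Folate carries single carbon units between serine, glycine, formate, purines and thymidylate, and mitochondria and cytosol hold parallel sets of the enzymes. In mitochondria, Shmt2 moves a carbon from serine to tetrahydrofolate, Mthfd2 oxidizes it to the formyl form, and Mthfd1l releases it as formate for the cytosol. Aldh1l2 competes with Mthfd1l for the formyl form, oxidizing it to CO2 with the production of NADPH. Aldh1l1 does the same in the cytosol and is widely used as an astrocyte marker. Shmt1 and Mthfd1 are the cytosolic counterparts of the serine and formyl steps, and Phgdh and Psat1 make serine from a glycolytic intermediate.

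Aldh1l2 lies on the minus strand of chromosome 10 (chr10:83487450-83534140, mm10), spans 46691 bases with 23 exons in its coding transcript of 923 residues, and overlaps D10Wsu102e on the opposite strand. Aldh1l1 lies on chromosome 6 (chr6:90486427-90600203, plus strand), and its longest coding transcript also has 23 exons and encodes 902 residues. The pair are paralogs, so shared sequence could in principle pass reads from one gene to the other. The longest stretch identical in the transcripts of both genes has 22 bases and is shown as the longest exact match of their spliced sequence. Introns, whose reads were also counted, were not compared. It is coding sequence in exon 3 of both genes (chr6:90559352-90559373, plus strand, and chr10:83522805-83522826, minus strand) and reads as follows.
Aldh1l1 and Aldh1l2: ctcaacgtgctccccttctgca

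The longest such stretch was 20 bases for Mthfd1 with Mthfd1l, 19 for Shmt1 with Shmt2, 14 for Mthfd1 with Mthfd2 and 12 for Mthfd1l with Mthfd2. Mthfd1l, on the same chromosome as Aldh1l2, lies at chr10:3973118-4167081 (plus strand) and spans 193964 bases, introns included. Because intronic reads were counted, genes inside one another on the same strand can share reads. Of the 9 genes, Aldh1l1, Mthfd1l and Mthfd2 have other annotated genes overlapping them on their own strand, and Aldh1l2 has none.

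In oligodendrocytes, the myelin-forming glia of the cord, Aldh1l2 stood at 63.7 ± 9.64 CPM in SOD1G93A mice and 30.2 ± 4.59 CPM in WT mice (SD, n = 6 each), from 481 and 340 UMIs. In female SOD1G93A mice the level was 63.2 CPM in pool A, 63.3 CPM in pool B and 48.3 CPM in pool C. In male SOD1G93A mice it was 61.3, 77.9 and 68.2 CPM in the same order. In female WT mice it was 24.8, 27.3 and 26.9 CPM, and in male WT mice 32.8, 36.8 and 32.8 CPM. The genotypes did not overlap, the lowest SOD1G93A value being female pool C and the highest WT value male pool B. Of the 10521 genes tested in oligodendrocytes, 16 (0.152%) had every SOD1G93A mouse above every WT mouse in this way, and nothing is read from Aldh1l2 being among them, since this contrast chose it. Within a pool and sex, the log2 ratio of the SOD1G93A mouse to the WT mouse lay between 0.85 (female pool C) and 1.35 (female pool A), with an SD of 0.19 over the 6 pairs. The fitted log2 fold change was 1.08 (SE 0.13).

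**Figure D1:**
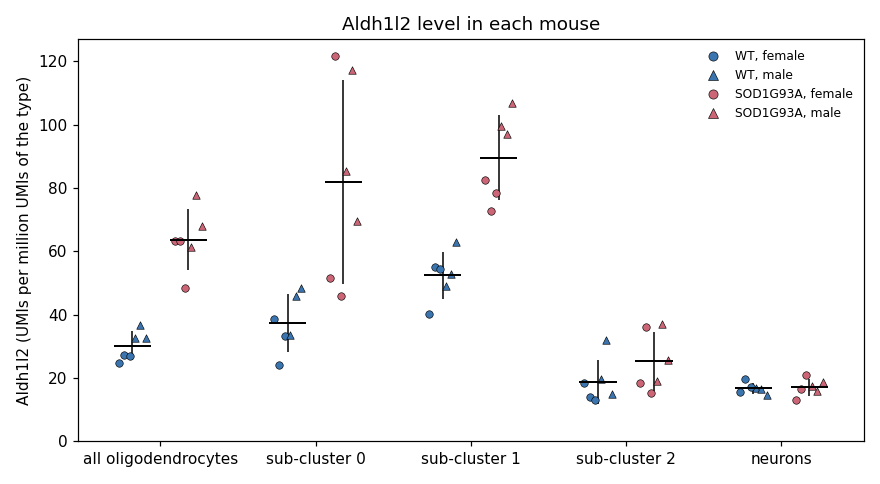
Aldh1l2 level in CPM in each of the 12 mice in all oligodendrocytes, in oligodendrocyte sub-clusters 0, 1 and 2 and in neurons, with WT and SOD1G93A mice side by side, circles for females, triangles for males, and bars for the mean and SD. In oligodendrocytes the SOD1G93A mice lie between 48.3 and 77.9 CPM, above the WT mice at 24.8 to 36.8 CPM, while in neurons the genotypes overlap.

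At a false discovery rate (FDR) under 0.1, 5 of the 10521 oligodendrocyte genes (0.0475%) were called by genotype. Aldh1l2 ranked 3 by adjusted p and 47 by the size of the log2 fold change. The others were Sod1 (1.23), the complement gene C4b (2.30), the transcription factor gene Stat3 (0.87) and the protein S gene Pros1 (1.36), in log2 fold change. The members of this set nearest to the threshold on its inner side were Stat3 and Pros1, both with an adjusted p of 0.0156, and the nearest outside were Srgap1 (−0.67, adjusted p = 0.175), Dtna (−0.44) and Mob3b (0.46, both adjusted p = 0.185) in the limma fit. Nothing is inferred from this place, because the rule used it. D10Wsu102e, which overlaps Aldh1l2 on the other strand, was measured at 52.0 to 81.6 CPM in WT and 54.5 to 87.8 CPM in SOD1G93A oligodendrocytes, with a log2 fold change of 0.08 (SE 0.13, adjusted p = 1.00).

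Most oligodendrocyte nuclei held no Aldh1l2 UMI in either genotype. Among 1200 WT oligodendrocyte nuclei, 958 (79.8%) held no Aldh1l2 UMI, 175 held 1, 46 held 2 and 21 held 3 or more, up to 5. Among 965 SOD1G93A nuclei, 682 (70.7%) held none, 171 held 1, 63 held 2 and 49 held 3 or more, up to 10. The share of nuclei with exactly 1 UMI was 14.6% in WT and 17.7% in SOD1G93A mice, and that with 3 or more was 1.75% and 5.08%. These counts pool the nuclei of all mice of a genotype, and male SOD1G93A pool B alone gave 387 of the 965 SOD1G93A nuclei. The median depth of the pooled nuclei was 6262.5 UMIs in WT and 5299 in SOD1G93A mice, so depth is not held equal in them.

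To compare nuclei at 1 depth, each was thinned to 2000 UMIs, the share being the one expected over all draws of 2000, with nuclei below that depth left out. This left 2063 of the 2165 nuclei (1147 WT, 916 SOD1G93A), and the share with an Aldh1l2 UMI was 12.0% ± 2.0 in SOD1G93A mice and 6.09% ± 1.1 in WT mice (SD, n = 6 each). Female SOD1G93A mice had 9.88% (pool A), 13.8% (B) and 9.51% (C), and male SOD1G93A mice 11.3%, 13.7% and 13.8%. Female WT mice had 5.55%, 4.94% and 6.00%, and male WT mice 5.80%, 8.14% and 6.14%. Again the genotypes did not overlap, with male WT pool B the highest of the WT mice. Without thinning, the shares were 30.7% in SOD1G93A and 19.1% in WT mice, and the genotypes overlapped (26.1 to 34.1% and 13.7 to 27.4%), since male WT pool B, at 27.4%, was above male SOD1G93A pool B (26.1%) and female SOD1G93A pool A (26.2%).

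Free RNA in droplets can give a nucleus UMIs of genes it does not express, so shares in other types are given too. At the same 2000 UMIs, the share was 0.366% in WT and 1.18% in SOD1G93A astrocytes (0.552% without female pool A, which was at 4.30%; median depth before thinning 5476 UMIs, against 5979 in oligodendrocytes) and 0.410% and 0.148% in endothelial cells (median depth 7347). Neurons stood at 3.05% and 3.14%, and OPCs at 5.44% and 2.51%. Microglia had 2.87% in WT and 6.50% in SOD1G93A mice. Motor neurons lay between 1.52 and 4.74% in WT mice, and had a mean of 7.40% in SOD1G93A mice (2.01 to 13.94%). Schwann and meningeal cells had 2.21% and 2.04%. Oligodendrocytes of WT mice were thus above astrocytes and endothelial cells of the same mice. No other type had a mean as high as the 12.0% of SOD1G93A oligodendrocytes. The highest SOD1G93A mouse was above it in motor neurons (13.94%) and in fibroblasts (15.97%), both with few nuclei. The part of free RNA in these shares was not tested.

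**Figure D2:**
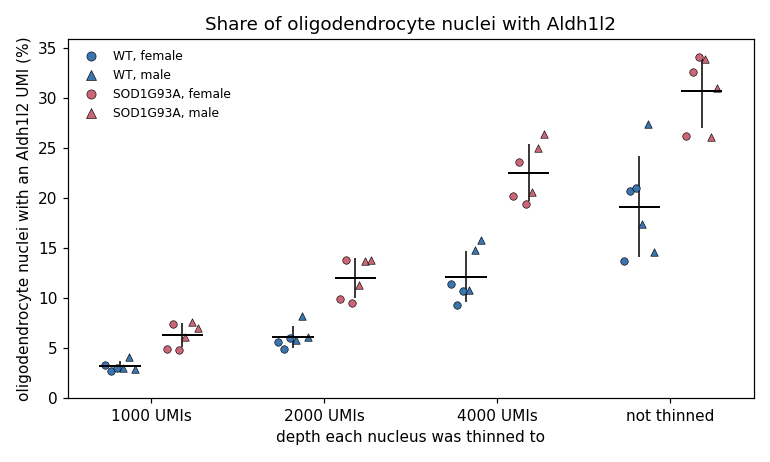
Percent of oligodendrocyte nuclei with at least 1 Aldh1l2 UMI for each mouse, after thinning each nucleus to 1000, 2000 or 4000 UMIs and without thinning, with bars for the mean and SD by genotype. At 2000 UMIs the 6 SOD1G93A mice lie between 9.51 and 13.8% and the 6 WT mice between 4.94 and 8.14%.

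The deposited oligodendrocyte sub-clusters number 5, and Aldh1l2 passed the filter on low counts in 3 of them. In sub-cluster 0 it was at 37.4 ± 9.07 CPM in WT (24.1 to 48.6) and 81.9 ± 32.3 CPM in SOD1G93A mice (45.9 to 122), higher in the SOD1G93A mouse of 6 of 6 pairs. Sub-cluster 1 had the highest WT level, 52.5 ± 7.49 CPM (40.2 to 62.9), against 89.6 ± 13.5 CPM (72.7 to 107) in SOD1G93A mice, with no overlap. In sub-cluster 2 the values were 18.7 ± 6.98 CPM (13.0 to 32.0) and 25.3 ± 9.36 CPM (15.3 to 37.0), higher in 5 of 6 pairs. The log2 fold changes were 1.36 (SE 0.27), 0.75 (SE 0.17) and 0.65 (SE 0.29), and they carry no test because these nuclei are part of those that chose the gene. Sub-clusters 3 and 4 held only 41 and 15 Aldh1l2 UMIs.

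Sub-clusters 0, 1 and 2 made up a mean of 33.4%, 36.6% and 23.5% of the oligodendrocyte nuclei of SOD1G93A mice, and 30.6%, 31.3% and 27.1% of those of WT mice, with an SD of 4.83 to 9.18 percentage points. Sub-cluster 3 took 3.92% ± 3.47 in SOD1G93A and 8.43% ± 3.29 in WT mice. This sub-cluster held markers of both oligodendrocytes and astrocytes. Its 4 oligodendrocyte markers summed to 2261 to 3581 CPM in WT and 1348 to 4123 CPM in SOD1G93A mice. Its 5 astrocyte markers summed to 2098 to 5469 CPM in WT and 2284 to 5564 CPM in SOD1G93A mice, and it held the astrocyte gene Aldh1l1 at 51.5 CPM in WT mice. Over all oligodendrocytes, the astrocyte markers summed to 417 to 754 CPM in WT and 320 to 635 CPM in SOD1G93A mice, the 4 oligodendrocyte markers (Mbp, Mobp, Mog and Mag) to 4013 to 5466 and 4028 to 5636 CPM, and no marker on any of the lists was called by genotype. In nuclei without a UMI of Aqp4, Gfap or Slc1a3 the fitted log2 fold change of Aldh1l2 was 1.34, and in nuclei of at most 20000 UMIs it was 1.06.

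Sex and its interaction with genotype were not part of the choice and were tested. Aldh1l2 in oligodendrocytes was at 26.3 CPM in female and 34.1 CPM in male WT mice, and at 58.3 and 69.1 CPM in female and male SOD1G93A mice. The log2 difference, female minus male, was −0.31 (SE 0.13, unadjusted p = 0.0299, adjusted p = 0.915), so it did not pass. The genotype difference was not detectably unequal between sexes (male minus female −0.12, SE 0.26, unadjusted p = 0.638).

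Outside oligodendrocytes, most Aldh1l2 UMIs were in neurons, which also made up most of the nuclei. Of 3948 UMIs, 63.7% fell in neurons, 20.8% in oligodendrocytes, 9.12% in microglia and 2.30% in motor neurons. By level in WT mice, the order was oligodendrocytes (30.2 CPM), oligodendrocyte precursors (OPCs, 23.2 CPM), microglia (19.2 CPM), motor neurons (17.8 CPM), neurons (16.8 CPM), Schwann and meningeal cells (11.1 CPM), astrocytes (2.38 CPM) and endothelial cells (1.56 CPM). Each type overlapped the next in its range over mice. WT nuclei labelled OPCs also held oligodendrocyte markers at 1043 to 2701 CPM, against 526 to 1462 CPM of OPC markers. Those labelled Schwann and meningeal cells held neuron markers at 2835 to 5480 CPM and oligodendrocyte markers at 1932 to 3575 CPM. Their Schwann markers summed to 33.8 to 277 CPM. The part of RNA of other types in these levels was not tested. Oligodendrocytes (24.8 to 36.8 CPM) lay wholly above neurons (14.6 to 19.8 CPM). Ependymal cells held no Aldh1l2 UMI, which their few UMIs still allow to be a level of up to 11.9 CPM, and fibroblasts held 3.

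In microglia, Aldh1l2 was higher in the SOD1G93A mouse of all 6 pairs, without passing the threshold. It was at 29.8, 35.2 and 25.9 CPM in female SOD1G93A mice of pools A, B and C and at 30.3, 33.1 and 22.5 CPM in males. In WT mice it was at 24.6, 18.7 and 12.4 CPM in females and 18.4, 21.5 and 19.5 CPM in males. The ranges overlapped through male SOD1G93A pool C and female WT pool A. The log2 fold change was 0.78 (SE 0.18, unadjusted p = 3.05e-04, adjusted p = 0.112), in a type where 7 of 9218 genes (0.0759%) were called. It passed without female WT pool A (adjusted p = 0.0296), without female SOD1G93A pool A (0.0945) and without male SOD1G93A pool C (0.0928), and over all alternatives its adjusted p ran from 0.0296 to 0.550.

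These nuclei also held RNA of other cell types. The oligodendrocyte markers summed to 1680 to 2233 CPM in WT and 1497 to 1966 CPM in SOD1G93A nuclei labelled microglia, and the 3 neuron markers to 1587 to 2104 and 1720 to 2320 CPM. The microglia markers Cx3cr1, Csf1r and P2ry12 summed to no more than 51.9 to 146 and 57.2 to 147 CPM, compared with 32.8 to 81.3 CPM in WT neurons. They were the deepest nuclei beside motor neurons, with a median of 46927 UMIs, and came to 78 in SOD1G93A and 145 in WT mice. The part of oligodendrocyte RNA in the Aldh1l2 value of microglia was not tested. After thinning to 2000 UMIs the share with an Aldh1l2 UMI was 6.50% ± 2.5 in SOD1G93A and 2.87% ± 1.3 in WT mice.

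In motor neurons, the cells lost in this disease, Aldh1l2 was at 17.8 ± 9.51 CPM in WT (5.58 to 30.1) and 36.6 ± 23.0 CPM in SOD1G93A mice (10.8 to 72.3), from 45 and 46 UMIs. It was higher in 4 of 6 pairs, with a log2 fold change of 0.82 (SE 0.43, adjusted p = 0.365). Without male WT pool A it was 0.48, and it ran from there to 1.18 (without male SOD1G93A pool C) when 1 mouse was left out. Only 23 SOD1G93A and 44 WT motor neurons were measured, and 157 of 5118 genes (3.07%) were called there. The smallest SOD1G93A sample was 1 nucleus (female pool C), and it gave the highest value, 72.3 CPM, from 2 UMIs.

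In neurons, with 2516 UMIs, Aldh1l2 was the same within error, at 16.8 ± 1.72 CPM in WT and 17.1 ± 2.69 CPM in SOD1G93A mice. The log2 fold change was 0.01 (SE 0.10, adjusted p = 1.00), in a type where 4 of 15681 genes (0.0255%) were called. Among the deposited neuron sub-types, ventral excitatory (VE) neurons had 24.3 CPM in WT and 24.0 CPM in SOD1G93A mice, and dorsal inhibitory (DI) neurons 12.5 and 9.03 CPM, with a log2 fold change of −0.45 (SE 0.23, unadjusted p = 0.0553). Dorsal excitatory (DE) neurons had 10.9 and 13.5 CPM (0.27, SE 0.18). The differences thus went either way and none passed.

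In astrocytes, Aldh1l2 had 36 UMIs and did not pass the filter. Its level was 1.72 to 3.28 CPM in WT mice and higher in the SOD1G93A mouse of 6 of 6 pairs, with a mean of 6.28 CPM and the highest value, 17.0 CPM, in female pool A. Oligodendrocyte markers in these astrocytes summed to 984 to 1811 CPM in SOD1G93A and 704 to 1151 CPM in WT mice, and 1 of the 4, Mbp, was called higher in SOD1G93A mice (log2 fold change 0.50). The part of oligodendrocyte RNA was not tested. In OPCs the level was 23.2 ± 13.3 CPM in WT and 17.7 ± 15.1 CPM in SOD1G93A mice, which did not pass the filter either.

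**Figure D3:**
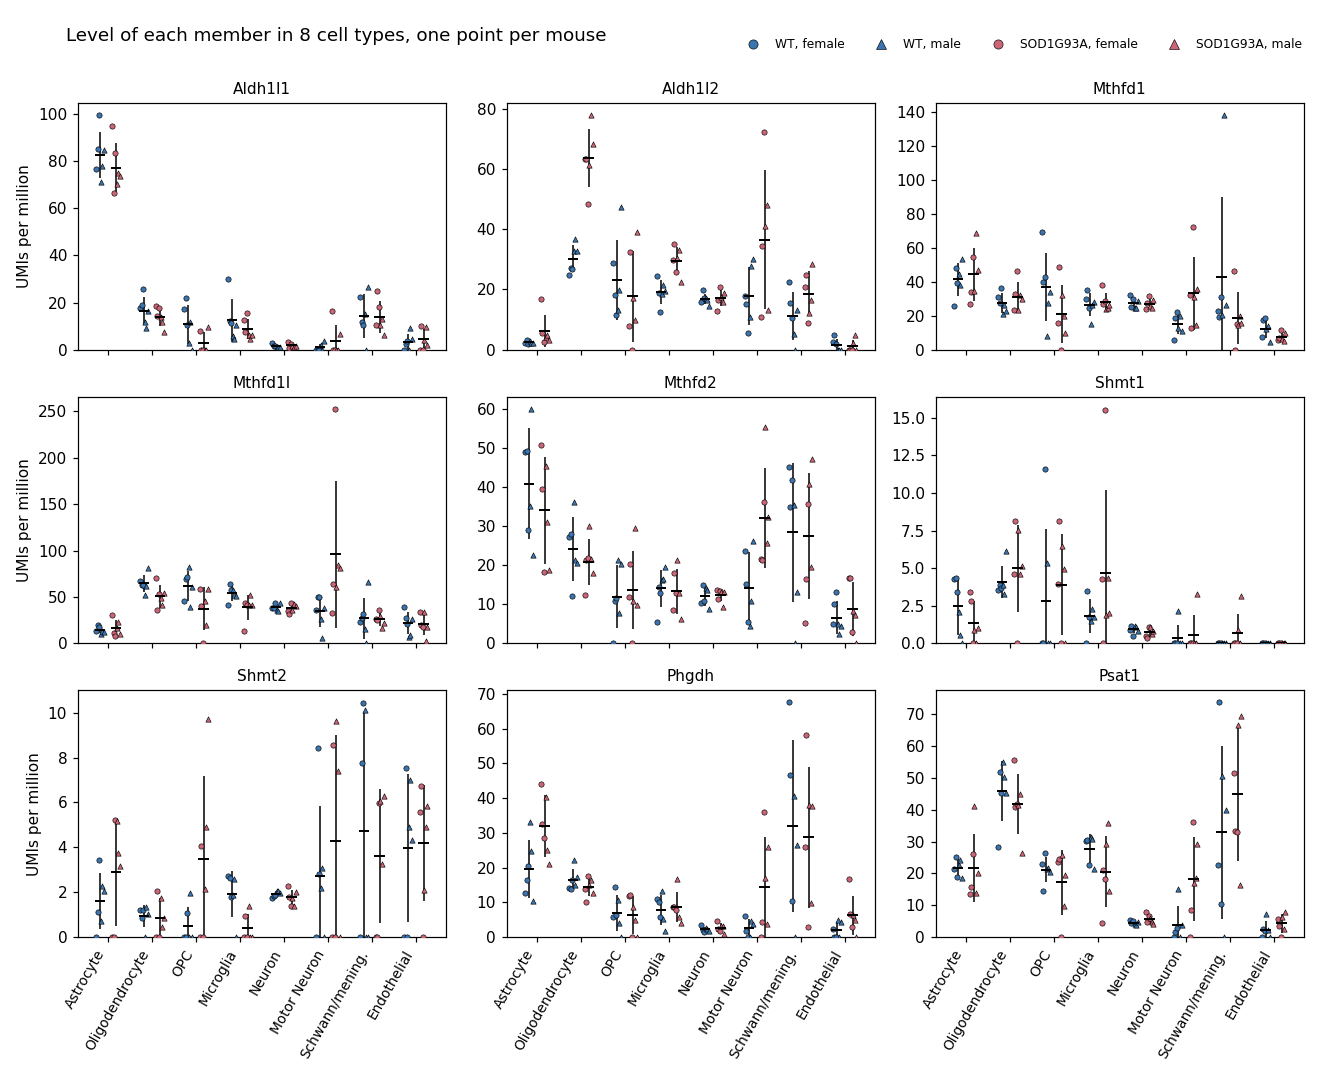
Level of each of the 9 genes in CPM in 8 cell types, 1 point per mouse, with WT and SOD1G93A mice side by side and bars for the mean and SD (each panel has its own axis). Aldh1l1 is highest in astrocytes (71.1 to 99.5 CPM in WT), and Psat1 and Aldh1l2 have their highest WT mean in oligodendrocytes.

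Aldh1l1, the cytosolic paralog, was highest in astrocytes, where Aldh1l2 was low. In WT mice it stood at 82.5 ± 9.87 CPM in astrocytes, where every mouse was above every mouse of every other type, and at 16.6 CPM in oligodendrocytes and 1.50 CPM in neurons. Astrocytes held 51.9% of its 1481 UMIs. In SOD1G93A astrocytes it was at 77.3 ± 10.3 CPM (66.6 to 95.0, against 71.1 to 99.5 in WT), a log2 fold change of −0.20 (SE 0.14, adjusted p = 0.570). In the same astrocytes 214 of 9347 genes (2.29%) were called by genotype, among them the astrocyte markers Gfap (1.12), Aqp4 (0.80) and Gja1 (0.43). In oligodendrocytes Aldh1l1 was at 16.6 ± 5.82 CPM in WT and 14.0 ± 3.93 CPM in SOD1G93A mice (−0.16, SE 0.22, adjusted p = 1.00).

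Aldh1l1 in microglia leaned to females, without passing. Female mice had 11.5 to 30.0 CPM in WT and 7.62 to 15.5 CPM in SOD1G93A, and males 4.50 to 10.6 CPM and 4.32 to 6.13 CPM. The log2 difference was 1.19 (SE 0.32, unadjusted p = 0.00109, adjusted p = 0.168). It passed without female WT pool C (1.37, adjusted p = 0.0968), in a range of 0.0968 to 0.776 over all alternatives. Aldh1l1 is an astrocyte gene, and 3 of the 5 astrocyte markers were called higher in females in the same nuclei, Gfap (1.68), Aqp4 (1.26) and Slc1a2 (0.76), their sum being 367 to 591 CPM in females and 203 to 431 CPM in males. The part of astrocyte RNA in this difference was not tested.

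Mthfd1l, which releases formate from mitochondria, had a lower mean in SOD1G93A than in WT oligodendrocytes, microglia and OPCs, but did not pass in any type. In WT oligodendrocytes it was at 67.4, 63.2 and 62.9 CPM in females and 52.0, 61.4 and 81.0 CPM in males of pools A, B and C. In SOD1G93A oligodendrocytes it was at 70.9, 35.7 and 52.7 CPM in females and 49.1, 40.8 and 53.7 CPM in males. The SOD1G93A mouse was lower in 5 of 6 pairs, the exception being female pool A, and the ranges overlapped. The log2 fold change was −0.38 (SE 0.15, unadjusted p = 0.0262, adjusted p = 1.00). Within sub-cluster 2 it was −0.67 (SE 0.19, unadjusted p = 0.00371, adjusted p = 0.999), from 84.3 ± 9.40 CPM in WT to 57.5 ± 23.8 CPM, while it was 0.08 (SE 0.23) in sub-cluster 0 and −0.11 (SE 0.21) in sub-cluster 1.

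In microglia, Mthfd1l was lower in the SOD1G93A mouse of 6 of 6 pairs, 38.6 ± 13.3 against 54.0 ± 7.93 CPM, with a log2 fold change of −0.44 (SE 0.17, unadjusted p = 0.0188, adjusted p = 0.473). In OPCs it was 37.1 ± 23.2 against 61.6 ± 16.2 CPM (−0.46, SE 0.26, adjusted p = 0.792). Nuclei of both types held oligodendrocyte markers, as given for Aldh1l2. The part of oligodendrocyte RNA in these Mthfd1l values was not tested. In neurons, with 5559 UMIs, Mthfd1l was at 38.2 ± 4.79 against 38.8 ± 3.73 CPM (−0.03, SE 0.08). Astrocytes had the lowest WT mean, 14.4 CPM, and a log2 fold change of 0.00 (SE 0.29).

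Motor neurons went the other way for Mthfd1l, again below the threshold. SOD1G93A mice had 32.4, 64.3 and 253 CPM in females and 60.2, 84.9 and 81.3 CPM in males, and WT mice 35.6, 50.4 and 50.2 CPM in females and 26.0, 6.14 and 37.6 CPM in males. The value of 253 CPM rests on 7 UMIs of a single nucleus. The log2 fold change was 1.15 (SE 0.37, unadjusted p = 0.00648, adjusted p = 0.137). It passed without female SOD1G93A pool A (adjusted p = 0.0950) and without male WT pool A (0.0581), in a range of 0.0581 to 0.304 over all alternatives. Without male WT pool B the log2 fold change was 0.67.

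Mthfd1, the cytosolic enzyme that handles the same intermediates, was close to even over the types tested. It stood at 27.5 ± 5.66 CPM in WT and 31.2 ± 8.46 CPM in SOD1G93A oligodendrocytes (log2 fold change 0.17, SE 0.16), and at 27.5 ± 3.11 and 27.2 ± 2.99 CPM in neurons (−0.01, SE 0.09). In astrocytes it was 41.5 ± 9.72 and 44.3 ± 15.5 CPM (−0.03, SE 0.21). Its type means in WT mice ran from 12.4 CPM in endothelial cells to 43.1 CPM in Schwann and meningeal cells, neighbouring types overlapping throughout. The latter rests on male WT pool B, at 138 CPM from 2 UMIs. Without it the mean was 24.0 CPM, and astrocytes had the highest.

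Mthfd2, the mitochondrial dehydrogenase of the pathway, had its highest WT mean in astrocytes, 40.9 ± 14.2 CPM, against 34.1 ± 13.7 CPM in SOD1G93A mice (log2 fold change −0.31, SE 0.20, adjusted p = 0.511, and −0.12 without male WT pool B). In oligodendrocytes it was 24.3 ± 8.15 and 20.9 ± 5.80 CPM (−0.23, SE 0.21), and in neurons 12.1 ± 2.52 and 12.4 ± 1.66 CPM (−0.03, SE 0.13). No difference was detected in microglia (0.13, SE 0.27).

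The serine hydroxymethyltransferases were too sparse for most comparisons. Shmt1 had 295 UMIs in all and Shmt2 398, and each passed the filter only in neurons. There the log2 fold changes were −0.31 (SE 0.30) for Shmt1 and −0.17 (SE 0.19) for Shmt2. Shmt1 stood at 4.07 CPM in WT oligodendrocytes, its highest WT mean, from 3.29 to 6.15 CPM, and at 0.922 CPM in WT neurons. Shmt2 stood at 0.935 CPM in WT oligodendrocytes and 1.92 CPM in WT neurons.

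Phgdh, which begins serine synthesis, was higher in the SOD1G93A astrocytes of 6 of 6 pairs but did not pass. The level was 44.1, 32.6 and 28.6 CPM in female and 40.4, 25.0 and 21.0 CPM in male SOD1G93A mice of pools A, B and C. It was 12.8, 16.4 and 20.6 CPM in female and 33.1, 24.7 and 10.3 CPM in male WT mice, so the genotypes overlapped through male WT pool A and B. The log2 fold change was 0.62 (SE 0.22, unadjusted p = 0.00972, adjusted p = 0.198). Astrocytes of the 2 genotypes were spread unequally over the 5 deposited sub-clusters. Sub-cluster 1 held 4.81 to 21.6% of the astrocyte nuclei of SOD1G93A mice and 26.9 to 42.6% of those of WT mice, and sub-clusters 3 and 4 held a mean of 18.9% and 17.6% in SOD1G93A and 9.35% and 7.53% in WT mice. Over the pooled UMIs of a sub-cluster, Phgdh was at 7.43 CPM in SOD1G93A and 8.19 CPM in WT mice in sub-cluster 1, 50.5 and 63.2 CPM in sub-cluster 3, 59.5 and 61.6 CPM in sub-cluster 4, 25.8 and 26.0 CPM in sub-cluster 0, and 9.69 and 6.73 CPM in sub-cluster 2. The means over mice were 8.95 and 8.996 CPM, 51.7 and 55.6 CPM, 99.8 and 47.3 CPM, 20.7 and 22.0 CPM, and 9.51 and 8.08 CPM in the same order, so that pooled UMIs and means differed in sub-cluster 4 (SD 109 CPM in SOD1G93A and 41.1 CPM in WT mice). Phgdh passed the filter in none of the 5, and the part of the sub-clusters in its value over all astrocytes was not tested. In oligodendrocytes Phgdh was at 16.5 ± 3.07 CPM in WT and 14.3 ± 2.66 CPM in SOD1G93A mice (−0.23, SE 0.20), and in neurons at 2.21 and 2.62 CPM (0.24, SE 0.21).

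Psat1, the next enzyme of serine synthesis, had its highest WT mean in oligodendrocytes, 46.0 ± 9.42 CPM, against 41.8 ± 9.31 CPM in SOD1G93A mice (log2 fold change −0.17, SE 0.18, adjusted p = 1.00). Neurons held less, 4.51 ± 0.625 and 5.63 ± 1.43 CPM, with a log2 fold change of 0.32 (SE 0.14, unadjusted p = 0.0378, adjusted p = 1.00). In the neurons without a clear sub-type it was 6.80 and 10.7 CPM (0.67, SE 0.23, unadjusted p = 0.00801, adjusted p = 0.629). In microglia it was 27.8 ± 4.60 and 20.5 ± 11.2 CPM (−0.39, SE 0.22, adjusted p = 0.730), and the part of oligodendrocyte RNA there was not tested. In Schwann and meningeal cells the plain means, 32.9 CPM in WT and 45.0 CPM in SOD1G93A mice, and the fitted log2 fold change, −0.11 (SE 0.39), differed in sign.

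**Figure D4:**
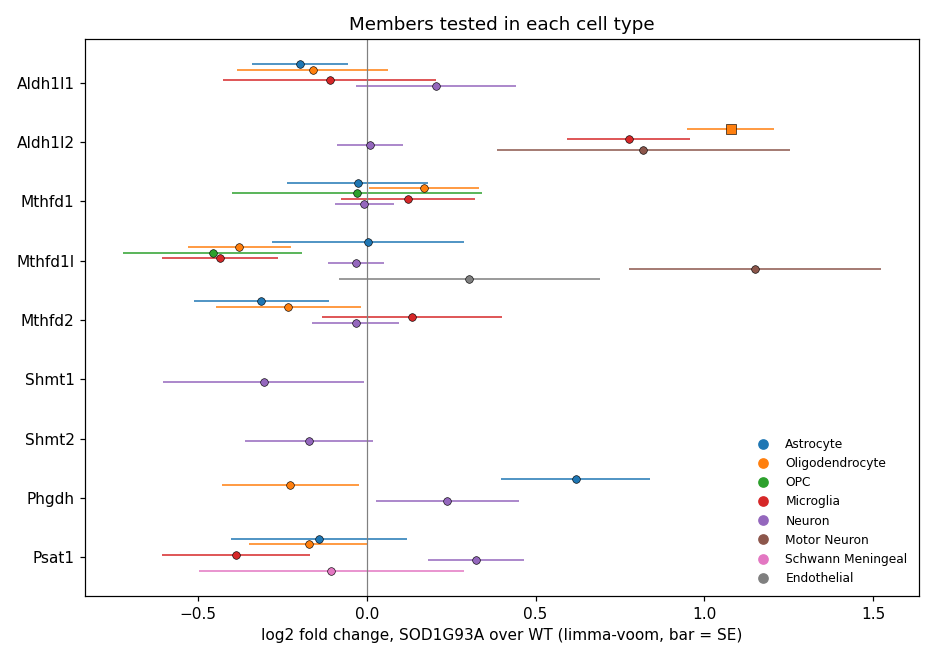
Genotype log2 fold change (SOD1G93A over WT) of each member in each cell type where it passed the filter, with bars for the SE. The square for Aldh1l2 in oligodendrocytes, 1.08, is the difference that chose the gene, and the other 33 points run from −0.46 to 1.15 with a median of −0.03.

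Over the 10 cell types, the 9 members gave 33 genotype tests besides the one that chose Aldh1l2. None passed, against 392 of 68984 tests over all genes (0.568%). In the limma fit 6 had an unadjusted p under 0.05 (7.18% of all tests did), and edgeR and DESeq2 also called 0, with 5 and 4 under 0.05. Of the log2 fold changes, 13 were above 0 and 20 below, where 50.8% of all tests were above 0. The genotypes overlapped in each of the 33 tests. A share over all genes without overlap is given for oligodendrocytes only (0.152% with SOD1G93A above), so nothing is read from that count. The background of 0.568% would call less than 1 of 33, so the absence of calls does not set the members apart.

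In the oligodendrocyte sub-clusters, 5 other members gave 11 tests and 0 calls with limma, edgeR or DESeq2, each with 1 unadjusted p under 0.05. Over all genes 8 of 4477 (0.179%) were called in sub-cluster 0, 3 of 6245 (0.048%) in sub-cluster 1 and 1 of 7134 (0.014%) in sub-cluster 2. In the 9 neuron sub-types, 6 members gave 32 tests, and in the astrocyte sub-clusters 4 members gave 6. None passed, with 1 unadjusted p under 0.05 in limma, 3 in edgeR and 0 in DESeq2, where 29 of 92255 tests over all genes (0.0314%) were called. For the sub-clusters and sub-types, the share of all genes with such a p is not given here, and nothing is read from these counts.

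For sex, 34 tests of members gave 0 calls in all 3 tools, with 5 unadjusted p under 0.05 in limma, 4 in edgeR and 2 in DESeq2, where 110 of 68984 tests over all genes (0.159%) passed. The interaction of sex and genotype gave 0 calls and 0 unadjusted p under 0.05 in 34 tests with all 3 tools, where 4 tests over all genes (0.0058%) passed. For neither contrast is the share of all genes with an unadjusted p under 0.05 given here, so nothing is read from those counts.

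Further genes of the pathways were taken as lists of 19 folate genes, 16 serine and glycine genes and 11 genes of the methionine cycle, which receives carbon from folate. In oligodendrocytes, 26 of these 46 genes were tested, 0 were called and 0 had an unadjusted p under 0.05 in limma. Over all genes there the shares were 0.0475% and 4.77%, so the zeros do not set the list apart. The median log2 fold change of the 26 genes was −0.07, with 8 above 0, against a median of 0.01 and 51.6% above 0 over all genes. The 12 folate genes tested there had a median of −0.10, and the lowest was −0.42 for Mthfd2l, a relative of Mthfd2.

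Over all types, the 46 genes gave 156 tests with a median of −0.03, and 2 passed, where 0.568% of all tests did. Both were among 25 tests in astrocytes, the type in which 2.29% of all genes were called. Gcsh, which encodes the lipoyl carrier protein of the glycine cleavage system, rose from 17.7 ± 7.18 CPM in WT (5.15 to 26.7) to 33.4 ± 11.0 CPM in SOD1G93A mice (20.0 to 47.5), a log2 fold change of 0.82 (SE 0.22, adjusted p = 0.0625). Srr, serine racemase, which makes D-serine, fell from 73.9 ± 12.5 CPM (59.8 to 88.3) to 52.5 ± 9.41 CPM (37.4 to 64.5), a log2 fold change of −0.61 (SE 0.16, adjusted p = 0.0692). The ranges overlapped for both genes, and the calls ended under several alternatives, with adjusted p from 0.0413 to 0.247 for Gcsh and from 0.0425 to 0.190 for Srr. Psph, the last enzyme of serine synthesis, was at a log2 fold change of 0.71 (adjusted p = 0.256) and the glycine transporter gene Slc6a9 at −0.33 (adjusted p = 0.227) in the same cells. Astrocyte markers moved there too, with a sum of 6277 to 7950 CPM in WT and 7550 to 9827 CPM in SOD1G93A mice, as did the oligodendrocyte marker Mbp, and their part was not tested. By sub-cluster of the astrocytes, whose shares differed between genotypes as given for Phgdh, pooled Gcsh was at 42.9 CPM in SOD1G93A and 31.6 CPM in WT mice in sub-cluster 3 and 71.7 and 56.7 CPM in sub-cluster 4, and at 23.2 and 24.7 CPM in sub-cluster 0, 11.1 and 9.22 CPM in sub-cluster 1 and 11.1 and 11.5 CPM in sub-cluster 2. Its mean over mice was higher in SOD1G93A mice in 5 of 5 sub-clusters, from 25.3 against 22.5 CPM in sub-cluster 0 to 99.8 against 43.0 CPM in sub-cluster 4, and it passed the filter in none. Pooled Srr was lower in SOD1G93A mice in 5 of 5 sub-clusters (41.9 to 59.5 CPM, against 69.8 to 90.4 CPM in WT), and did not pass in the 3 where it was tested (adjusted p = 0.883 to 0.961 in the limma fit).

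ATF4 is the transcription factor of the integrated stress response, a program that includes genes of serine synthesis and of mitochondrial folate metabolism. Of a list of 30 genes of this program, 15 were tested in oligodendrocytes, where 10 were above 0 (51.6% of all genes there). The median log2 fold change was 0.12. In limma 0 passed (0.0475% of all genes there), and 1 had an unadjusted p under 0.05 (4.77% of all genes there). That gene was Cebpg, a partner of ATF4 (0.50, SE 0.21, unadjusted p = 0.0321, adjusted p = 1.00). Atf4 itself was at 6.15 to 13.4 CPM in WT and 6.13 to 12.3 CPM in SOD1G93A oligodendrocytes, a log2 fold change of 0.02 (SE 0.27). Asns, asparagine synthetase and a known target, was at 3.17 ± 1.56 and 3.64 ± 1.49 CPM and did not pass the filter. The ATF4 gene is also subject to translational control, which UMIs do not show.

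In motor neurons 8 genes of this list were tested. All 8 were above 0, where 50.3% of all genes there were, with a median log2 fold change of 0.51 against 0.00 over all genes. In limma 0 passed, where 3.07% of all genes there did. An unadjusted p under 0.05 was found for 3 of the 8, and for 15.9% of all genes there. The 3 motor neuron markers also had a median log2 fold change of 0.54 in these nuclei, their sum being 314 to 455 CPM in WT and 362 to 767 CPM in SOD1G93A mice, and the astrocyte marker tested was at 0.98, with a sum of 29.2 to 186 and 0 to 459 CPM for the 5 astrocyte markers. Their part was not tested. The 3 stress-response genes were the amino acid transport genes Slc3a2 (0.79, adjusted p = 0.175) and Slc7a1 (0.68, adjusted p = 0.258) and the alanyl-tRNA synthetase gene Aars (0.73, adjusted p = 0.190). In neurons Trib3, a target and inhibitor in this program, had a log2 fold change of 1.05 (unadjusted p = 0.00309, adjusted p = 0.629). Over all types the list gave 100 tests, with 70 above 0, 0 calls in limma, edgeR and DESeq2, and 12, 11 and 5 unadjusted p under 0.05. Over all genes 50.8% of the tests were above 0 in the limma fit, and 7.18%, 6.43% and 4.26% had an unadjusted p under 0.05 in the same 3 tools.

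**Figure D5:**
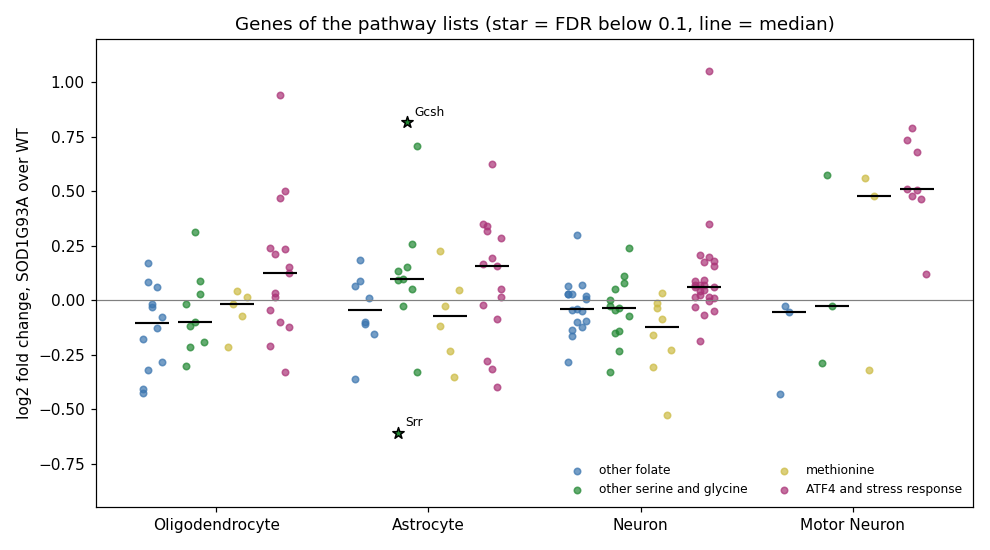
Genotype log2 fold change (SOD1G93A over WT) of each tested gene of the folate, serine and glycine, methionine and ATF4 lists in 4 cell types, 1 point per gene, with the median of each list. In oligodendrocytes the folate list has a median of −0.10 and the ATF4 list 0.12, and in motor neurons the ATF4 list has 0.51 over 8 genes.

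Genes most like Aldh1l2 in their level over the 10 cell types of WT mice were found by Pearson's r of log2 of 1 plus the CPM, over 16076 genes with at least 5 CPM in some type. The 5 leading genes were Parm1 (r = 0.986), Gm4793 (0.986), Gm20319 (0.978), Cacna2d4 (0.973) and Gm47661 (0.972). Parm1 went from 11.3 CPM in fibroblasts to 93.1 CPM in motor neurons and 88.2 CPM in oligodendrocytes. The other leading genes were at 0 CPM in WT fibroblasts and ependymal cells, as was Aldh1l2. Those types held only 88223 and 173717 UMIs in WT mice, so shared zeros there enter the order. None of the members was near the top of this order, the closest being Shmt1 (r = 0.61, rank 2065) and Shmt2 (0.50, rank 3049). Phgdh and Psat1 were at 0.41, Mthfd1l at 0.39, Mthfd2 at 0.32, Aldh1l1 at 0.11 (rank 6606) and Mthfd1 at −0.13. With 10 points that share libraries and differ in depth, these values are descriptive.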

How the data were processed

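Single-nucleus RNA sequencing counts of 12 mice were used. The authors deposited raw counts of UMIs for every gene in every nucleus, from CellRanger 3.1 and STAR 2.5.1b on mm10 pre-mRNA, so that intronic reads count, with bcl2fastq 2.20.0.422 per the submitters' processing notes. The authors assigned nuclei to mice from hashtags (Seurat 4.0.3, R 4.0.3), removed nuclei of low quality, with hashtags of several mice or with over 10% mitochondrial UMIs, and removed mitochondrial genes. Doublets within a mouse were not called here. Cell types, sub-types and sub-clusters are those deposited, as are genotype and sex of each mouse. The deposited normalized, integrated values were not used.

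UMIs were summed per mouse over the nuclei of a type. As in the study, genes were filtered with filterByExpr, scaled with TMMwsp factors and fitted with voom and limma, with a term per group of sex and genotype and per pool. A minimum count of 10, robust eBayes, limma 3.58.1 and R 4.3.3 were used here. The labels give a batch letter only. Mice of a pool share 1 library preparation per the methods of the study, and the pool is thus the replicate block. P values were adjusted by the Benjamini-Hochberg method over all genes of a type, and an FDR under 0.1 was a call. They measure the spread between mice. CPM are on unscaled totals. The fit was tested on simulated counts of oligodendrocytes only, with the same spread for every gene and no effect of the pool. Fits of the other types and of the sub-clusters were not tested in this way. Alternatives were edgeR 4.0.16, DESeq2 1.42.0, TMM factors, no filter, a minimum count of 30, no pool term, eBayes without the robust option, and leaving out each mouse. Counting error limits genes of few UMIs.

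The members, the gene lists and the tests were chosen with earlier results of these data known. The genes named are the 9 members, list genes that passed the test, the 5 genes most like Aldh1l2, and markers. Any other gene of the lists, D10Wsu102e, and the genes next to the threshold in oligodendrocytes were picked with their values in view. An oligodendrocyte marker and a folate gene of the lists are not reported here, and the marker was left out of the sums. Coordinates are from GENCODE M21 (GRCm38, the build of mm10).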

Additional observations from a re-analysis of the deposited data

Results flagged for a closer look

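A mouse far from the other 5 of its genotype was sought in 70 groups by Dixon's ratio (critical value 0.625), and 6 were found where chance alone gives about 1 in 20 groups, or 3.5. In the nuclei labelled microglia, Aldh1l1 was at 30.0 CPM in female WT pool A (11 UMIs), with the next WT mouse at 12.2 CPM. Female SOD1G93A pool A, which has 5 such nuclei, stood apart for Mthfd1, at 38.3 CPM (9 UMIs) with the next at 28.5 CPM, and for Mthfd1l, at 12.8 CPM (3 UMIs) with the next at 40.9 CPM. In motor neurons, Mthfd1l was at 253 CPM in female SOD1G93A pool C, from 7 UMIs of 1 nucleus, with the next at 84.9 CPM. In oligodendrocytes, Psat1 was at 28.4 CPM in female WT pool A (24 UMIs), with the next WT mouse at 45.1 CPM. The share of thinned oligodendrocyte nuclei with an Aldh1l2 UMI was 8.14% in male WT pool B, above the other WT mice.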

How the results depend on the processing

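The log2 fold change of Aldh1l2 in oligodendrocytes stayed between 1.02 and 1.13 when any 1 mouse was left out and between 1.07 and 1.08 under the other tests, filters and scalings and without the replicate block of the pool. It moved by more than the spread between pairs to 1.34 in nuclei without a UMI of Aqp4, Gfap or Slc1a3. The difference in thinned share, 5.90 percentage points, was 3.13 at 1000 UMIs, 10.4 at 4000 UMIs and 11.5 without thinning, and 5.54 to 6.40 without any 1 mouse, the depth itself setting the size of a share. The count of members called over the cell types, 0, became 1 without a filter (Psat1 in motor neurons) and ran from 0 to 2 without any 1 mouse. Without a filter, 688 of 196082 tests over all genes (0.351%) were called, and 2.31% of those in motor neurons. For sex the count of members ran from 0 to 1 without any 1 mouse. For fits without 1 mouse the share of all genes is not given here. Nothing is read from those counts, of members or of lists. Over the neuron sub-types and astrocyte sub-clusters the count of members became 1 without a filter (Shmt2 in astrocyte sub-cluster 1). That Shmt2 call rests on at most 2 UMIs in any mouse. The share of all genes called in the same fit is not given here, and nothing is read from the call. For the folate, serine and methionine list, the 2 calls became 0 with DESeq2, where neither gene had an adjusted p, 1 without a filter (Slc6a9 in motor neurons, neither of the 2 having passed), 1 with a minimum count of 30 and 1 with no replicate block (Srr in both), and 0 to 2 without any 1 mouse. Of the tests over all genes, 0.467% were called with DESeq2 and 0.351% without a filter. The share was 0.690% with a minimum count of 30 and 0.225% with no replicate block. For the ATF4 list, the 0 became 5 without a filter, all in motor neurons (Atf3, Sesn2, Nupr1, Ddit3 and Vldlr), where that setting called 457 of 19784 genes (2.31%), and 0 to 1 without any 1 mouse. The cause of these changes was not tested. Without the replicate block, Gcsh in astrocytes was the call lost among the members and lists, and over all genes the calls by genotype went from 5 to 4 in oligodendrocytes, 4 to 1 in neurons, 7 to 3 in microglia, 214 to 105 in astrocytes and 157 to 40 in motor neurons. Reversals were of values near 0 that had not passed. They were −0.0013 for Aldh1l2 in neurons without the replicate block, −0.0158 (TMM factors) and −0.0949 (no replicate block) for Mthfd1l in astrocytes, −0.0243 for Mthfd1l in endothelial cells and 0.0044 for Mthfd2 in neurons (both DESeq2), and 0.0371 (edgeR), 0.127 (DESeq2) and 0.231 (no filter) for Psat1 in Schwann and meningeal cells. Without any 1 mouse, log2 fold changes that crossed 0 ran from −0.41 to 0.0808 for Aldh1l1 in microglia and −0.0803 to 0.0569 for Aldh1l2 in neurons. Those of Mthfd1 ran from −0.22 to 0.0881 in astrocytes, −0.10 to 0.32 in microglia, −0.0637 to 0.0576 in neurons and −0.44 to 0.27 in OPCs. Those of Mthfd1l ran from −0.21 to 0.30 in astrocytes, −0.23 to 0.56 in endothelial cells and −0.11 to 0.0126 in neurons. Those of Mthfd2 ran from −0.19 to 0.24 in microglia and −0.0993 to 0.0484 in neurons, and those of Psat1 from −0.43 to 0.0071 in astrocytes and −0.30 to 0.72 in Schwann and meningeal cells. Values below the threshold that moved by over 1.5 times without crossing 0 included Mthfd2 in astrocytes (−0.52 to −0.12), Mthfd1l in OPCs (−0.70 to −0.24) and Psat1 in microglia (−0.64 to −0.27). In oligodendrocytes they included Aldh1l1 (−0.26 to −0.0114), Mthfd2 (−0.39 to −0.0195), Psat1 (−0.30 to −0.0553) and Mthfd1 (0.0579 to 0.22). In neurons they included Phgdh (0.0772 to 0.38) and Shmt1 (−0.61 to −0.0826). The interaction for Aldh1l2 in oligodendrocytes ran from −0.23 to 0.00013. Few UMIs limit Shmt1, Shmt2 and every value in motor neurons, OPCs, ependymal cells and fibroblasts.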

Other observations

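Genes of the stress list that did not pass the filter on low counts were uneven between mice in motor neurons. Atf3, a transcription factor gene induced in injured neurons, was at 108, 36.9 and 6.50 CPM in male SOD1G93A mice of pools A, B and C, at 0 in the 3 female SOD1G93A mice and at 0 in 5 of 6 WT mice, the other having 1.54 CPM. These mice had 1 to 6 SOD1G93A and 4 to 11 WT motor neuron nuclei each. Asns in motor neurons was at 20.3 ± 16.4 CPM in SOD1G93A and 13.2 ± 7.05 CPM in WT mice (SD, n = 6 each). Psat1 in motor neurons, also below the filter, was at 0, 8.58 and 36.2 CPM in female and 16.9, 18.5 and 29.3 CPM in male SOD1G93A mice, and at 0, 1.68 and 2.79 CPM in female and 15.2, 0 and 3.76 CPM in male WT mice. The value of 36.2 CPM rests on 1 UMI of a single nucleus.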
